A study of Mus musculus with 21 samples.

Results

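The collagen gene family was followed through messenger RNA bound to ribosomes and through total messenger RNA of the embryonic mouse forebrain and kidney. Members were every gene whose symbol has the form Col, a number, a and a number, such as Col4a1, and 43 of the 23827 gene rows qualified. No symbol was repeated, and the rule used no measured value, though it was chosen with earlier results of these data known. Of the 43 genes, 26 exceeded 5 RPKM (reads per kilobase of transcript, scaled to the mapped reads, a level that can be compared between genes) as the mean of at least 1 group, and 8 stayed under 1 RPKM in every group, namely Col10a1, Col17a1, Col19a1, Col28a1, Col4a3, Col5a3, Col6a5 and Col8a1.

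Collagens are secreted or membrane-bound proteins built from α chains that wind into triple helices. Fibril-forming collagens (types I, II, III, V, XI, XXIV and XXVII) make the cables of connective tissue, whereas type IV collagen makes the sheet-like network of basement membranes, including the one under every capillary. The other classes decorate fibrils or link membranes to matrix, and in the developing brain fibrillar collagen is found in the meninges and the walls of vessels, among other places.

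The study tagged ribosomes with mCherry so that RNA under translation could be immunoprecipitated from chosen cells, an approach called translating ribosome affinity purification. All 7 groups came from embryos at embryonic day 14.5 that carried 1 copy of Gt(ROSA)26Sor-mCherry-Rpl10a, in which the tagged ribosomal protein is made only after Cre recombination and is then driven by the CAGGS promoter. Each group held 3 samples, and each sample pooled organs, 2 brains for every brain sample, 4 kidneys for whole-organ kidney samples and 6 kidneys for kidney endothelial samples. The brain was the forebrain with part of the diencephalon.

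The groups differed in the Cre allele and in the RNA taken. Sox2Cre+/-;Gt(ROSA)26Sor-mCherry-Rpl10a+/- embryos, recombined in the whole embryo proper, gave the brain and kidney transcriptomes (all messenger RNA) and the brain and kidney translatomes (ribosome-bound RNA of the whole organ). Cdh5CreERT2+/-;Gt(ROSA)26Sor-mCherry-Rpl10a+/- embryos, in which tamoxifen given by oral gavage ahead of harvest turns on Cre under the endothelial Cdh5 promoter, gave the brain EC and kidney EC translatomes, where EC means endothelial cell. Emx1Cre+/-;Gt(ROSA)26Sor-mCherry-Rpl10a+/- embryos gave the Emx1-lineage translatome of the forebrain, from the dorsal telencephalon. The EC groups and the Emx1-lineage group were each sequenced in a run of their own, so run and group cannot be told apart there. Runs also differed among the whole-organ groups. Brain translatomes were in run RS176, brain transcriptomes in RS176 (sample 1) and RS177, kidney transcriptomes in RS178 and kidney translatomes in RS177 and RS178 (sample 3). The brain and kidney transcriptomes shared no run, and the translatomes shared runs with the transcriptomes of their organ only in part.

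Libraries held between 21760652 and 79231692 reads in gene rows. The label of each group was checked with marker genes. The 6 endothelial markers (Cdh5, Pecam1, Tie1, Tek, Kdr and Emcn) summed to between 1450 and 1520 RPKM in brain EC samples and between 1500 and 1710 in kidney EC samples, against 72.6 to 83.6 in brain translatomes, 254 to 274 in kidney translatomes and 4.79 to 5.22 in Emx1-lineage samples. Neural markers (5 genes) summed to between 306 and 398 RPKM in brain EC samples against 1610 to 1660 in brain translatomes, and all 5 were lower. Kidney epithelium markers (5 genes) summed to between 35.3 and 46.4 in kidney EC samples against 232 to 251 in kidney translatomes, and kidney stroma markers (3 genes) to between 53.1 and 66.5 against 244 to 280. Macrophage markers (3 genes) stayed at or under 14.7 RPKM and red cell markers (4 genes) ranged from 39.6 in a kidney EC sample to 647 in a kidney transcriptome. Cartilage and bone markers (4 genes) summed to between 5.59 and 28.6 RPKM.

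Collagens made up a larger part of the RNA in kidney than in brain and a larger part in EC than in the whole-organ translatome of the same organ. Summed over the 43 genes, the brain translatome reached 226 ± 17.3 RPKM (SD, n = 3) and brain EC 883 ± 128, while the kidney translatome reached 1280.2 ± 108 and kidney EC 1482 ± 73.5. The Emx1-lineage translatome held the least, 81.5 ± 5.9 RPKM. As a share of all reads, collagens took 0.132% in the brain translatome, 0.544% in brain EC, 0.0477% in the Emx1-lineage, 0.751% in the kidney translatome and 0.897% in kidney EC.

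The make-up of that sum moved with the cell type. Basement membrane collagens (type IV) took 25.3% ± 0.995 (SD, n = 3) of the summed collagen RPKM in the brain translatome and 56.8% ± 3.36 in brain EC, and 25.5% ± 2.97 in the kidney translatome and 47.3% ± 4.54 in kidney EC. Not every type IV gene rose, as mean Col4a5 went from 3.07 to 2.85 RPKM in brain and from 14.25 to 10.66 in kidney. Fibril-forming collagens held a smaller share in EC, from 49.2% ± 0.582 to 20.8% ± 3.29 in brain and from 52.6% ± 2.01 to 30.0% ± 4.35 in kidney. Multiplexins (Col15a1 and Col18a1, whose products sit in or next to basement membranes) had a larger share in EC, from 5.19% ± 0.29 to 13.7% ± 0.92 in brain and from 5.68% ± 0.458 to 13.2% ± 0.729 in kidney. For each of these class shares the 3 EC samples did not overlap the 3 whole-organ samples. In the Emx1-lineage, fibril-forming collagens held the largest share of any group, 60.4% ± 1.46, and basement membrane collagens the smallest, 12.0% ± 0.486.

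**Figure D1:**
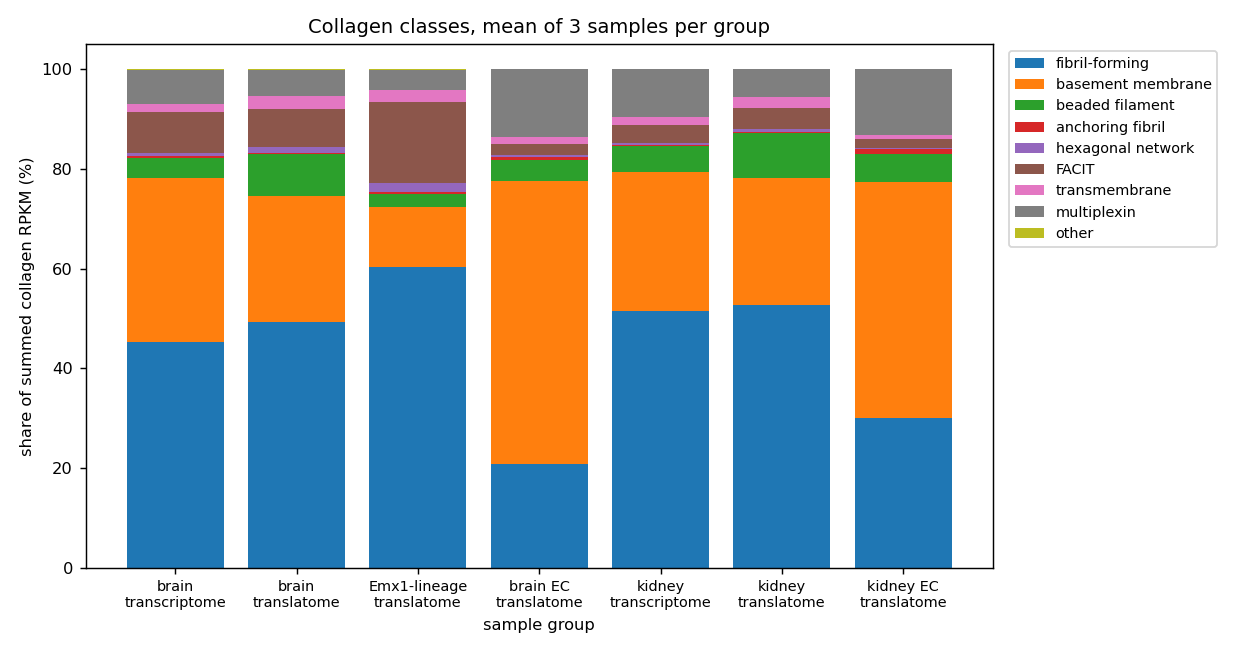
Share of the summed collagen RPKM (vertical axis, %) taken by each collagen class in the 7 groups (horizontal axis), as means of 3 samples. Basement membrane collagens take 56.8% in brain EC and 47.3% in kidney EC but 12.0% in the Emx1-lineage translatome.

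**Figure D2:**
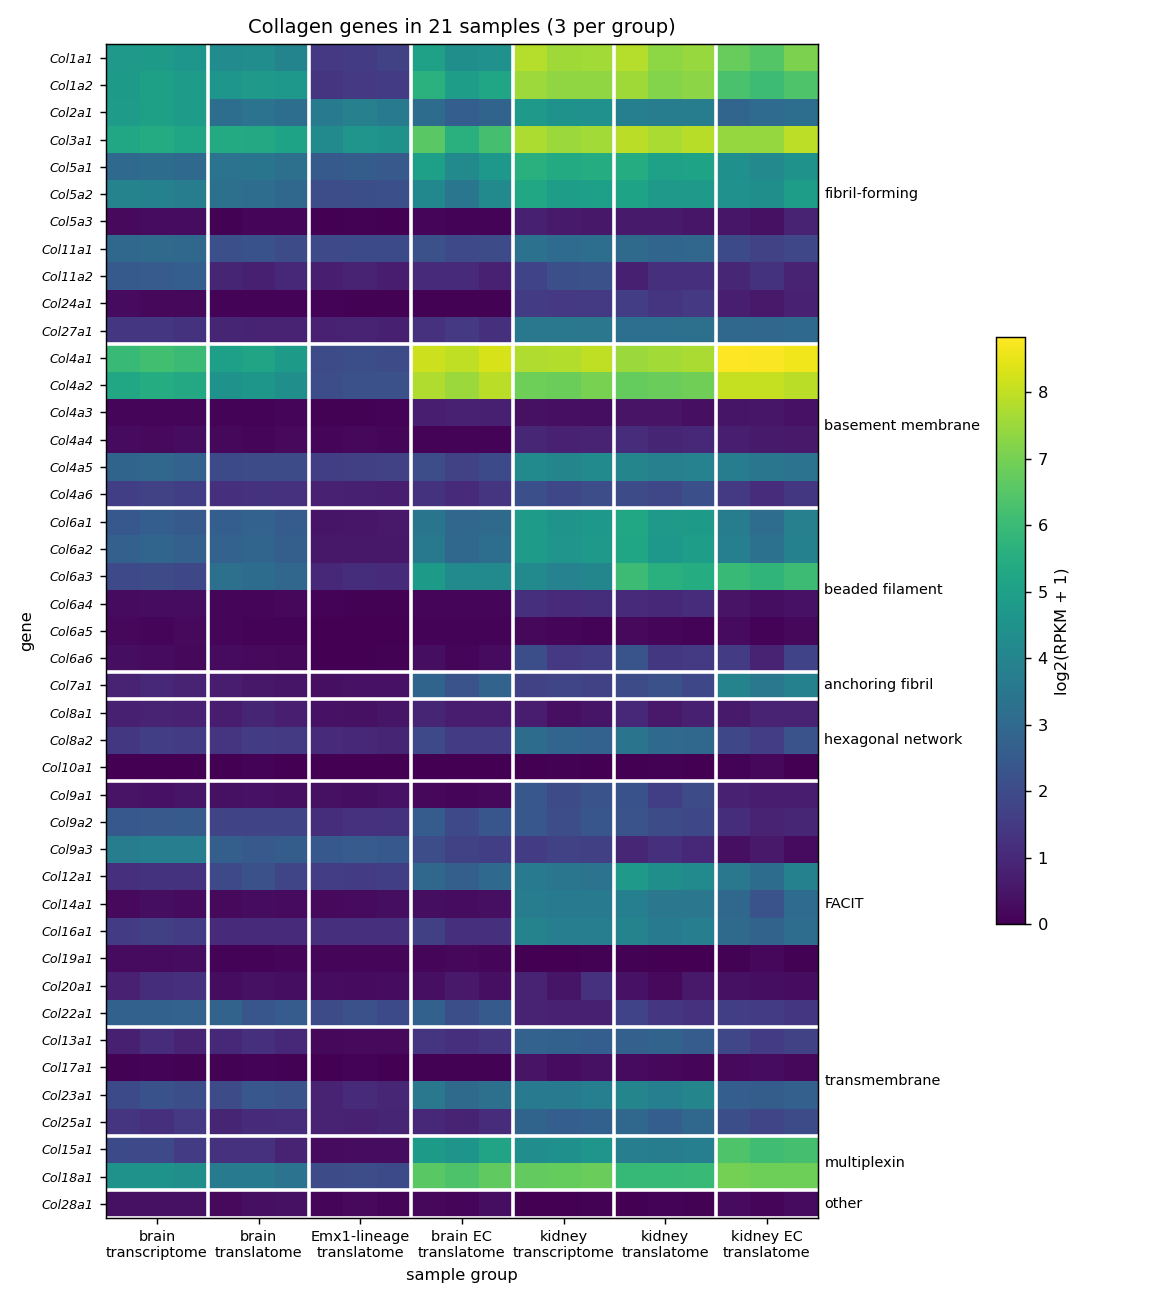
Level of the 43 collagen genes (rows, ordered by class) in the 21 samples (columns, 3 per group), coloured by log2(RPKM + 1). Col4a1 and Col4a2 are brightest in the 2 EC groups, and most genes are brighter in kidney than in brain.

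Which collagens endothelial cells of the brain translate was asked by comparing brain EC with the whole-brain translatome. The collagens that passed the test were higher in brain EC: 18 of 43 genes passed an adjusted p of 0.001 (edgeR's quasi-likelihood test, adjusted over all 19103 rows tested) in that direction and 0 in the other, against 24.8% of all rows higher and 21.4% lower. The median log2 fold change was 0.70 over the 43 genes and -0.01 over all rows. At an unadjusted p under 0.05, edgeR gave 3 collagen genes lower, and DESeq2 gave 1 lower at the adjusted threshold. In such bulk samples, fewer cells of a type and less RNA per cell cannot be told apart.

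Of the 6 type IV genes, Col4a1, Col4a2 and the low Col4a3 were higher in brain EC, and the other 3 did not pass. The pair Col4a1 and Col4a2 had the highest RPKM of the family in brain EC. Col4a1 and Col4a2 encode the 2 chains of the collagen IV found in nearly every basement membrane. Col4a1 (chr8:11198423-11312889, GRCm38) measured 30.5, 34.4 and 26.8 RPKM in the brain translatome samples and 287, 249.6 and 316 in the brain EC samples. Its log2 fold change was 3.51 ± 0.12 (SE), or 11.4-fold (adjusted p = 2.6e-11, edgeR). Col4a2 (chr8:11312805-11449287) measured 22.2, 24.4 and 19.8 RPKM in the translatome and 216, 179 and 238 in EC, a log2 fold change of 3.54 ± 0.12. Every EC sample exceeded every translatome sample for both genes.

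The pair is transcribed head to head, and the 2 annotated genes overlap at their starts. The RefSeq start sites in the promoter table (GRCm38.p6) frame the 22 bases at chr8:11312805-11312826, shown on the plus strand because they mark the shared point from which the genes run apart, with a GC box (GGGCGG or its reverse complement) in capitals. The libraries did not keep strand, so reads falling in the overlap cannot be assigned to one gene by sequence alone.
Col4a1 and Col4a2: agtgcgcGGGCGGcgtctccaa

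Col15a1 and Col18a1 encode the multiplexin chains of basement membrane zones, and the end fragment of the Col18a1 product is endostatin. Col15a1 measured 1.37, 1.42 and 0.80 RPKM in the brain translatome and 27.1, 22.9 and 35.0 in brain EC, a log2 fold change of 4.84 ± 0.20 or 28.7-fold (adjusted p = 1.5e-10). Col18a1 measured 11.1, 11.3 and 9.25 RPKM against 94.0, 81.2 and 101 in EC, a log2 fold change of 3.41 ± 0.10. Col7a1 encodes the anchoring fibril collagen, best known from the skin. It was low in the brain translatome at 0.61, 0.47 and 0.41 RPKM and reached 6.21, 3.74 and 6.06 in brain EC, a log2 fold change of 3.69 ± 0.20. For these 3 genes too, no EC sample overlapped a translatome sample.

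The upstream sequences of 4 members are shown so that 2 genes higher in both EC groups (Col18a1 and Col7a1) can be read beside 2 fibrillar genes that were not higher in kidney EC (Col3a1 and Col1a2). Each is the 250 bases before a RefSeq start site (GRCm38.p6), written 5′ to 3′ on the gene's own strand. Capitals mark the GC box GGGCGG, the CCAAT box with just those letters, the TATA box motif TATAAA and the ETS core motif AGGAAG, each searched on both strands. Col18a1 has a second RefSeq window (chr10:77113706-77113955), not shown, which holds an ETS core and no GC, CCAAT or TATA box, unlike the one printed.
Col18a1 (chr10:77166531-77166780, minus strand): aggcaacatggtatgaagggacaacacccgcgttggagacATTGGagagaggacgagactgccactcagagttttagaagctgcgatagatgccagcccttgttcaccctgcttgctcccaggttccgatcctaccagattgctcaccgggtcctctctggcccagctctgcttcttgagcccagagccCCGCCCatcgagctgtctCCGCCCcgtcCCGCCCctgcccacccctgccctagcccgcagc
Col7a1 (chr9:108953336-108953585, plus strand): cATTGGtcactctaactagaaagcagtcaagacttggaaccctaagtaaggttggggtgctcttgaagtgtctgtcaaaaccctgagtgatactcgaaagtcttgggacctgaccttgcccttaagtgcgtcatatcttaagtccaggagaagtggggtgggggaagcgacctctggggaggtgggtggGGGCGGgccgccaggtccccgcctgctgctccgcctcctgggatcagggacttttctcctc
Col3a1 (chr1:45311288-45311537, plus strand): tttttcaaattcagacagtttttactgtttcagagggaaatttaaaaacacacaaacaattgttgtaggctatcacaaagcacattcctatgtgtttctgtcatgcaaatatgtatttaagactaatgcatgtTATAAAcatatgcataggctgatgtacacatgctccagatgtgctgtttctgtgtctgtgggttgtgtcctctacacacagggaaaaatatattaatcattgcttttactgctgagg
Col1a2 (chr6:4505368-4505617, plus strand): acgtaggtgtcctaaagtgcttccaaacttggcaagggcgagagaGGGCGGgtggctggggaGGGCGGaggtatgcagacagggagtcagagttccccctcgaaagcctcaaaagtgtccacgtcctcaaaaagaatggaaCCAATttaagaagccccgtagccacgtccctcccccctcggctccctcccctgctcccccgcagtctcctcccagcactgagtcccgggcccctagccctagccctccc

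Of the 43 members, 35 had a window in the promoter table, with 38 windows in all. A GC box lay in 57.9% of the collagen windows and in 32.7% of all 32851 windows of the same length. The CCAAT box was found in 34.2% against 33.8%, the TATA box in 13.2% against 12.4% and the ETS core in 28.9% against 29.5%. These are matches of letters in a window and say nothing of a factor binding there.

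Fibril-forming collagens were also higher in brain EC, by smaller folds and with more spread. Of the 11 measured, 6 were higher (Col1a1, Col1a2, Col3a1, Col5a1, Col5a2 and Col27a1). Col3a1, the type III chain of pliable connective tissue, measured 41.6, 38.8 and 33.6 RPKM in the translatome and 94.4, 47.3 and 73.9 in EC, a log2 fold change of 1.21 ± 0.18 (adjusted p = 6.1e-05). Col1a1, a chain of the major fibrillar collagen, measured 18.0, 18.9 and 14.9 RPKM against 32.4, 20.3 and 21.0, a log2 fold change of 0.80 ± 0.15 (adjusted p = 0.00039). EC sample 2 lay nearest the translatome for both genes. The Col1a1 call was lost without brain translatome sample 1 (0.83) or 3 (0.70), and the Col3a1 call without brain translatome sample 1 (1.28). The Col1a1 call was also lost with total-count scaling (0.50) and with a filter of at least 10 counts in 3 samples (0.77).

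Among the beaded filament collagens (type VI, pericellular microfibrils), 3 of 6 were higher. Col6a3, the long α chain of type VI, measured 8.65, 7.73 and 6.54 RPKM in the translatome and 27.0, 17.3 and 17.5 in EC, a log2 fold change of 1.72 ± 0.15. Of the 9 FACIT collagens, which coat fibrils, 2 were higher (Col12a1 and Col9a2), and of the 4 transmembrane collagens 1 was (Col23a1). Both counts are near the 24.8% of all rows that were higher in this comparison.

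Some markers of other cells moved with the fibrillar genes in brain EC, and others moved against them. The 7 fibroblast and meninges markers summed to between 109 and 150 RPKM in brain EC against 75.4 to 86.0 in the brain translatome, and 4 of the 7 (Foxc1, Dcn, Pdgfra and Aldh1a2) were higher. The 7 mural cell markers summed to between 35.2 and 41.9 RPKM against 59.1 to 72.4, with 5 lower and Cspg4 alone higher. The part of these cells in the collagen result was not tested. With libraries scaled by their total counts in place of TMM factors, which shifted the collagen log2 fold changes by a median of -0.30, 13 collagens were higher and 3 lower.

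The same question was put to kidney EC against the kidney translatome. Only a small set was higher there: 5 of 43 genes, against 16.7% of all rows, and 12 were lower, against 15% of all rows. The median log2 fold change was -0.16 over collagens and -0.04 over all rows. The 5 genes were Col4a1, Col4a2, Col15a1, Col18a1 and Col7a1, each also higher in brain EC. The other 4 of the 6 type IV genes did not pass.

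Col4a1 measured 181, 192 and 207 RPKM in the kidney translatome and 454, 436 and 398 in kidney EC, a log2 fold change of 1.50 ± 0.09 (adjusted p = 1.3e-07). Col4a2 measured 107, 110.0 and 119.8 RPKM against 264, 266 and 239.8, a log2 fold change of 1.55 ± 0.08. Col15a1 rose from 12.6, 12.3 and 12.9 RPKM to 83.5, 68.1 and 74.2, a log2 fold change of 2.93 ± 0.08 or 7.63-fold. The 3 EC samples lay clear of the whole-kidney samples for each.

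Col18a1 measured 59.6, 59.3 and 60.4 RPKM in the kidney translatome and 126, 117 and 117 in kidney EC, a log2 fold change of 1.35 ± 0.06. Col7a1 measured 3.06, 3.59 and 2.77 RPKM against 14.6, 10.5 and 13.6, a log2 fold change of 2.39 ± 0.13. Neither gene overlapped between the groups, and kidney EC held the highest Col7a1 level of the 7 groups.

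The fibrillar and type VI genes did not follow in kidney. Col1a1 measured 231, 160.2 and 174 RPKM in the translatome and 109.6, 87.8 and 136 in EC, a log2 fold change of -0.40 ± 0.17 that missed the threshold (adjusted p = 0.062). Col3a1 measured 238, 210.3 and 234 RPKM against 171, 173 and 249, a log2 fold change of 0.15 ± 0.14 (adjusted p = 0.37), and its groups overlapped. That small value turned to -0.22 with total-count scaling and to -0.05 without kidney EC sample 3. The mean Col3a1 RPKM, which carries no TMM factor, was 227 in the translatome and 198 in EC, opposite in direction to the TMM-scaled value.

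Col6a1 and Col6a2, the short chains of type VI, were lower in kidney EC. Col6a1 measured 36.9, 26.5 and 26.8 RPKM in the kidney translatome and 12.2, 7.94 and 13.5 in EC, a log2 fold change of -1.06 ± 0.18 (adjusted p = 0.00049). Col6a2 measured 36.5, 25.1 and 29.0 against 12.9, 9.01 and 13.6, a log2 fold change of -0.99 ± 0.16. Col6a3 did not follow them, at 66.0, 47.4 and 43.3 RPKM against 62.4, 53.3 and 65.3, a log2 fold change of 0.56 ± 0.15 (adjusted p = 0.007).

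Of the 4 transmembrane collagens 3 were lower too, and of the 3 hexagonal network collagens 1 was. Col23a1, a transmembrane collagen, measured 15.3, 12.9 and 15.1 RPKM in the kidney translatome and 5.27, 5.07 and 5.53 in EC, a log2 fold change of -1.09 ± 0.08 (adjusted p = 9.5e-07). Col13a1, another transmembrane collagen, measured 5.53, 6.06 and 4.88 RPKM against 2.67, 1.90 and 2.26 in EC (-0.91 ± 0.14). Col8a2, a chain of the hexagonal networks known from Descemet's membrane, measured 9.53, 7.16 and 6.88 RPKM against 2.78, 2.07 and 3.81 (-1.08 ± 0.20). These genes belong to different classes but moved the same way here. Col11a1, a minor fibrillar chain, measured 7.39, 6.41 and 6.46 RPKM against 2.94, 2.24 and 2.68 (-1.01 ± 0.11). All 3 EC samples lay under all 3 translatome samples for each of the 4 genes.

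The count of lower genes rested in part on single libraries. It was 6 in place of 12 without kidney translatome sample 3. Among the named genes, the calls of Col8a2 (-0.92 to -1.17), Col6a1 (-0.89 to -1.14), Col6a2 (-0.83 and -1.02) and Col13a1 (-0.84) each missed the threshold when some 1 of the libraries kidney translatome 1, 2 or 3 or kidney EC 1 was left out, with the same sign throughout. With the count filter Col8a2 (-1.10) and Col6a1 (-1.09) also missed it. The fibroblast and meninges markers summed to between 67.1 and 104 RPKM in kidney EC against 359 to 441 in the kidney translatome, and 6 of the 7 were lower. The mural markers summed to between 124 and 136 against 183 to 194, with 5 of 7 lower and Cspg4 and Abcc9 higher. Their part in the collagen result was not tested. Total-count scaling, which shifted the collagen values by a median of -0.37, gave 5 higher and 19 lower.

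**Figure D3:**
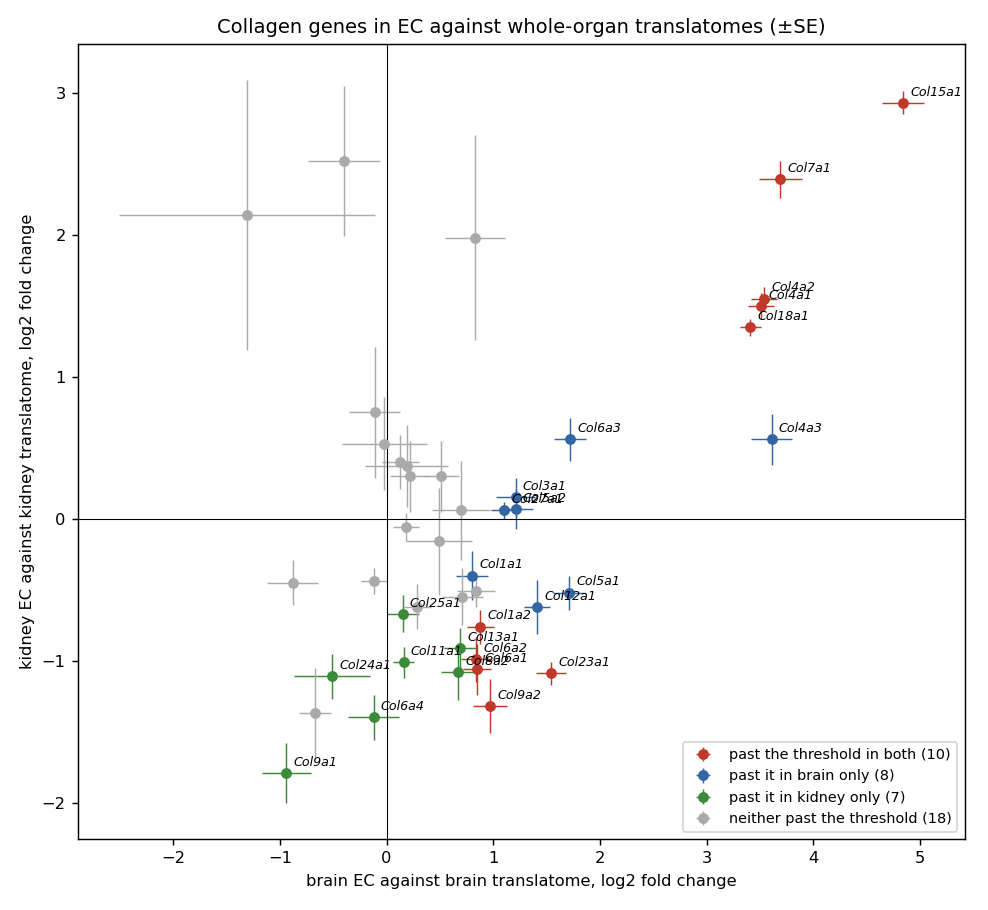
Log2 fold change of each of the 43 collagen genes in brain EC against the brain translatome (horizontal axis) and in kidney EC against the kidney translatome (vertical axis), with standard errors. Colours show where the adjusted p passed 0.001, and Col15a1, Col7a1, Col4a1, Col4a2 and Col18a1 lie at the upper right.

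**Figure D4:**
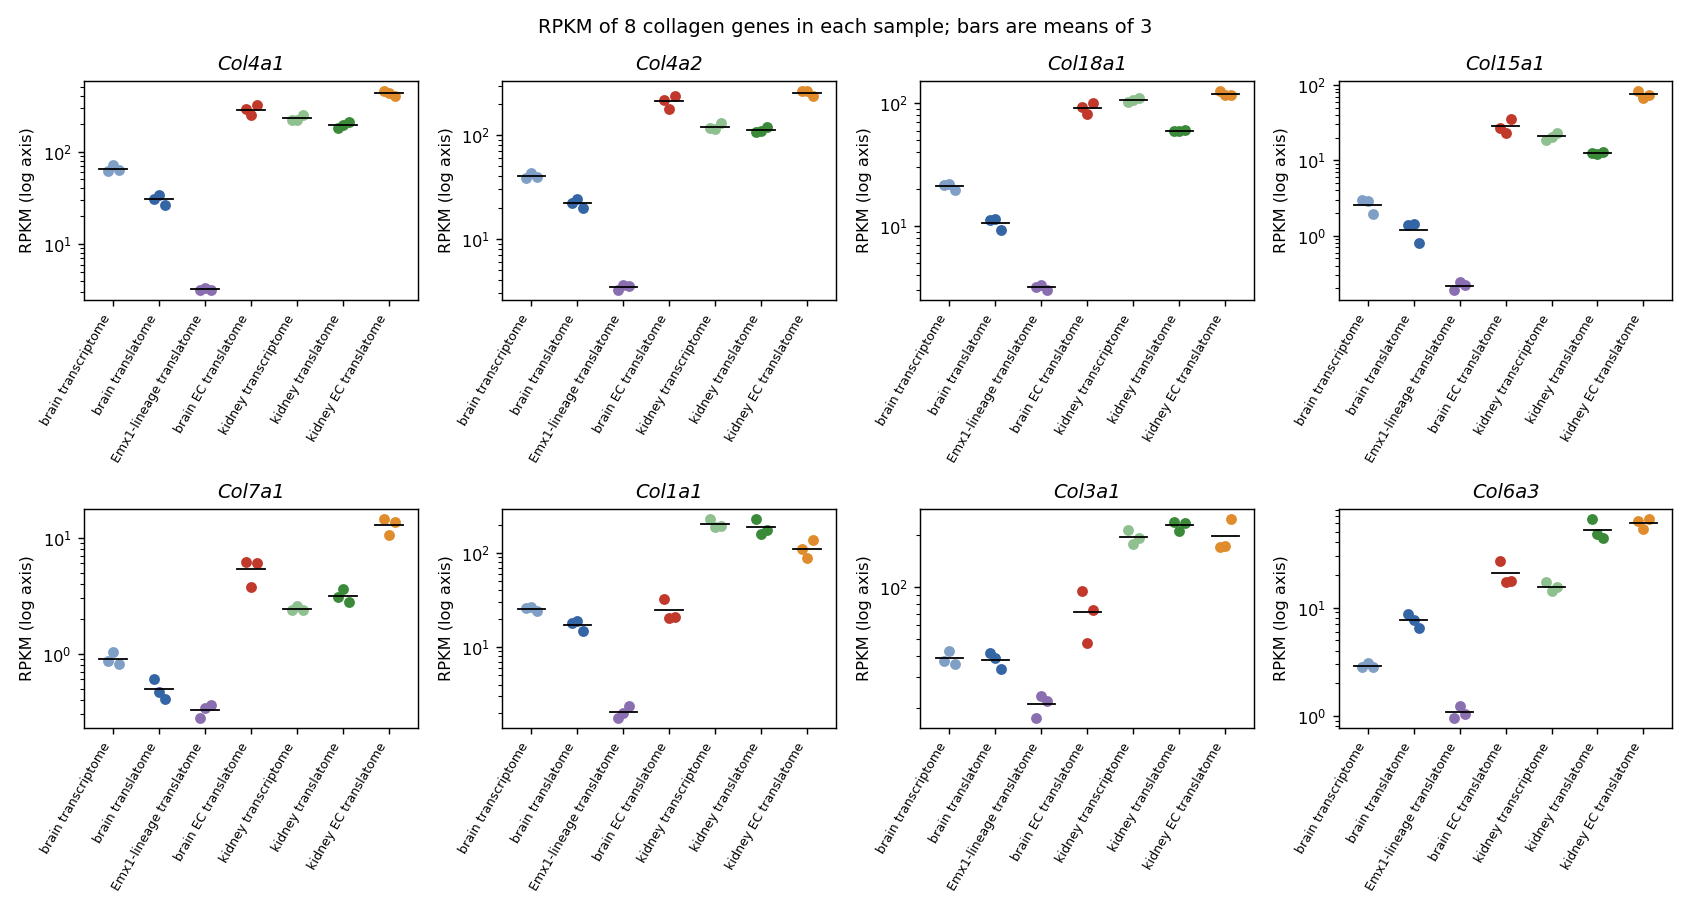
RPKM (log axis) of 8 collagen genes in every sample of the 7 groups, with black bars at group means. Col4a1 and Col4a2 peak in the 2 EC groups and are lowest in the Emx1-lineage, whereas Col1a1 stays highest in the kidney whole-organ groups.

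Whether the EC enrichment of collagens differed between the organs was tested with an interaction term over the 12 samples of the 4 groups. The log2 change from whole organ to EC was larger in brain for 20 of 43 genes and smaller for 0, against 16.5% and 8.6% of all rows. The median was 1.17 (log2) over collagens and 0.15 over all rows. A larger change in brain is not always a stronger enrichment there, since genes such as Col23a1 were lower in kidney EC. At an unadjusted p under 0.05 edgeR gave 1 gene with a smaller change in brain, and DESeq2 gave 1 at the adjusted threshold. The genes higher in both organs took part: the interaction was 2.03 ± 0.15 (SE) for Col4a1 (adjusted p = 1e-08), 2.02 ± 0.15 for Col4a2 and 2.09 ± 0.12 for Col18a1. It was 2.66 ± 0.18 for Col23a1, 2.26 ± 0.23 for Col5a1, a regulatory chain of fibril diameter, and 2.05 ± 0.26 for Col12a1.

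For Col1a1 (1.23 ± 0.26, adjusted p = 0.001) and Col3a1 (1.08 ± 0.27, adjusted p = 0.0033) the interaction missed the threshold, and each passed it in a single fit of all 21 samples (1.23 and 1.08). Col1a1 also passed with total-count scaling (1.27), and each passed when some single libraries were left out, from 1.33 to 1.40 for Col1a1 and at 1.29 and 1.31 for Col3a1. The 6 endothelial markers, higher in both EC groups, all had stronger enrichment in brain (median 1.54). All 7 fibroblast and meninges markers also had a larger log2 change in brain (median 2.25). The share of the collagen difference that goes with the amount of endothelium in each whole organ was not tested.

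A direct comparison of brain EC with kidney EC gave more collagens lower in brain EC than higher. Of 43 genes, 19 were lower and 5 higher, against 16.9% and 20.1% of all rows, 19 did not pass the threshold, and the median log2 fold change was -0.63 against 0.01 over all rows. The brain EC and kidney EC libraries also serve in the comparisons above. Among the markers, all 3 of kidney stroma were lower in brain EC (median log2 fold change -2.08), as were 5 of 7 mural markers (median -1.67), while of the 7 fibroblast and meninges markers 3 were higher and 2 lower. Their part in the collagen result was not tested. Col1a1 was lower in brain EC by -2.14 ± 0.20 (log2 ± SE, adjusted p = 4.9e-06) and Col3a1 by -1.42 ± 0.23 (adjusted p = 0.00029), both without overlap of samples.

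For the basement membrane pair the differences were small. Col4a1 had a log2 fold change of -0.55 ± 0.10 (adjusted p = 0.00069), which missed the threshold without brain EC sample 1 (-0.55) or 2 (-0.46) or kidney EC sample 1 (-0.50) or 2 (-0.55), and with the count filter (-0.56). Col4a2 was -0.24 ± 0.11 (adjusted p = 0.074). Col4a5, a chain of the specialised type IV networks of kidney, measured 3.28, 2.28 and 3.00 RPKM in brain EC and 12.5, 10.1 and 9.38 in kidney EC (-1.86 ± 0.14).

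The largest fold change among the 43 genes in this comparison was that of Col14a1, a fibril-associated collagen of differentiated connective tissue. It measured 0.27, 0.24 and 0.29 RPKM in brain EC and 6.65, 3.84 and 7.49 in kidney EC, a log2 fold change of -4.45 ± 0.25 (adjusted p = 8.5e-08). Col16a1, another fibril-associated collagen, measured 2.22, 1.28 and 1.35 RPKM in brain EC against 7.37, 5.95 and 7.97 (-2.09 ± 0.20). Col27a1, a fibrillar chain of cartilage, measured 1.37, 1.76 and 1.34 RPKM against 6.81, 6.62 and 7.05 (-2.16 ± 0.11). Col6a3 was lower in brain EC by -1.54 ± 0.17. Col23a1 went the other way, at 10.6, 7.27 and 8.65 RPKM in brain EC and 5.27, 5.07 and 5.53 in kidney EC, a log2 fold change of 0.78 ± 0.12 that missed the threshold without kidney EC sample 2 (0.75). All these groups were free of overlap.

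The Emx1-lineage translatome asked which collagens the neural cells of the dorsal telencephalon translate. Collagens were largely lower than in the whole-brain translatome: 23 of 43 genes were lower, against 12.8% of all rows, and 1 was higher, against 9.2%, with a median log2 fold change of -0.83 against 0.00. Endothelial markers (all 6), mural markers (all 7) and 6 of 7 fibroblast and meninges markers were lower in the same samples.

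Col4a1 fell to 3.17, 3.38 and 3.19 RPKM, a log2 fold change of -3.18 ± 0.08 (adjusted p = 3.9e-13). Col1a1 fell to 1.77, 1.98 and 2.38 RPKM (-3.03 ± 0.10) and Col1a2, its partner chain, to 1.50, 1.73 and 1.90 (-3.84 ± 0.08). The type VI genes were lower too. Col6a1 measured 0.41, 0.45 and 0.51 RPKM in the Emx1-lineage (-3.49 ± 0.11), Col6a2 0.47, 0.48 and 0.47 (-3.58 ± 0.10) and Col6a3 0.96, 1.23 and 1.05 (-2.78 ± 0.10). No Emx1-lineage sample reached a translatome sample for any of these 6 genes.

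Col3a1 kept a higher level than the other fibrillar genes, at 17.5, 23.5 and 22.0 RPKM, with a log2 fold change of -0.81 ± 0.09 (adjusted p = 4.3e-06). The ratio of Col3a1 to Col1a1 RPKM was 10.3 ± 1.37 (SD, n = 3) in the Emx1-lineage and 2.21 ± 0.134 in the brain translatome, and it lay between 0.918 and 3.52 in every sample of the other 6 groups. Col2a1, the fibrillar chain of cartilage that is also made by early neuroepithelium, was the 1 gene higher, at 11.3, 13.5 and 11.3 RPKM against 8.07, 9.24 and 8.06, a log2 fold change of 0.57 ± 0.07 (adjusted p = 2.1e-05). Of the 4 cartilage and bone markers, Sox9, a transcription factor that neural progenitors also make, was higher in the Emx1-lineage, at 26.5, 26.5 and 24.5 RPKM against 19.1, 19.2 and 21.8, and the other 3 did not pass. Acan and Matn1 stayed under 0.36 RPKM in all 21 samples.

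Against the brain transcriptome, 36 collagens were lower in the Emx1-lineage and 1 higher (23.8% and 25.4% of all rows), with a median log2 fold change of -1.33 against -0.06. Col4a1 was lower by -4.18 ± 0.06, Col4a2 by -3.39 ± 0.06, Col18a1 by -2.58 ± 0.06 and Col3a1 by -0.73 ± 0.08 (log2 ± SE). The higher gene was Col12a1. Col2a1 was among the 36, while Col12a1 was lower against the translatome, so the direction of these 2 genes turned with the reference used. Both comparisons share the Emx1-lineage samples.

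The EC groups were also set against the transcriptomes, sharing the EC libraries with the comparisons above. In brain, 15 collagens were higher and 10 lower (26.8% and 24.3% of all rows), with a median of 0.21 against -0.06. Fold changes (log2 ± SE) were 3.79 ± 0.17 for Col15a1, 3.16 ± 0.15 for Col6a3, 2.90 ± 0.17 for Col7a1, 2.73 ± 0.11 for Col4a2, 2.56 ± 0.10 for Col12a1 and 2.46 for both Col4a1 (± 0.10) and Col18a1 (± 0.09). The lower genes included Col9a3, a fibril-associated chain of cartilage (-1.97 ± 0.14), Col2a1 (-1.85 ± 0.11), Col11a1 (-0.82 ± 0.09) and Col4a5 (-0.79 ± 0.11). With total-count scaling 12 were higher and 14 lower, and Col1a1 (0.27 ± 0.14, adjusted p = 0.11) turned to -0.07.

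In kidney, 9 collagens were higher and 11 lower in EC than in the transcriptome (22.7% and 18.4% of all rows), with a median of -0.33 against -0.10. Col7a1 (2.83 ± 0.12), Col6a3 (2.37 ± 0.10), Col15a1 (2.28 ± 0.09), Col4a2 (1.52 ± 0.08), Col4a1 (1.32 ± 0.08) and Col18a1 (0.57 ± 0.06) were higher on the log2 scale, and Col2a1 (-1.24 ± 0.11), Col11a1 (-1.20 ± 0.11), Col1a2 (-0.74 ± 0.10), Col23a1 (-0.72 ± 0.07) and Col5a1 (-0.72 ± 0.10) lower. Col6a3 thus passed against the transcriptome and not against the translatome. Total-count scaling gave 7 higher and 21 lower. Under it, Col18a1 missed the threshold at 0.13 and Col1a1 (-0.45 ± 0.15, adjusted p = 0.024) passed it at -0.89.

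How ribosome-bound RNA relates to total RNA was asked by setting each whole-organ translatome against the transcriptome of the same pooled tissue. In brain, 21 of 43 collagens were lower in the translatome and 3 higher, against 18.5% and 18.6% of all rows, with a median log2 fold change of -0.54 against -0.01. In kidney, 6 were lower and 3 higher, against 15.8% and 14.9%, with a median of -0.04 against -0.03. With the shared tissue sample as a block, the kidney counts became 14 lower and 10 higher, in a fit that set every gene's dispersion to the common trend, while the brain counts became 22 lower and 3 higher. Under the block the kidney log2 fold changes of Col4a1 (-0.26) and Col3a1 (0.23), which had missed the threshold, passed it.

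Col6a3 and Col12a1, a fibril-associated collagen of tendon and fascia, were the genes higher in the translatome of both organs. Col6a3 measured 2.84, 3.06 and 2.81 RPKM in the brain transcriptome and 8.65, 7.73 and 6.54 in the brain translatome (1.42 ± 0.09, adjusted p = 7.3e-09). In kidney it measured 17.1, 14.2 and 15.4 RPKM and then 66.0, 47.4 and 43.3 (1.74 ± 0.14, adjusted p = 2.8e-06). No translatome sample overlapped a transcriptome sample in either organ.

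The type VI chains join in a fixed assembly, and the ratio of Col6a3 to Col6a1 moved with both the RNA taken and the cells profiled. Col6a3 stood to Col6a1 at 0.61 ± 0.034 (SD, n = 3, RPKM ratio) in the brain transcriptome and 0.613 ± 0.0163 in the kidney transcriptome. In the translatomes the ratio was 1.44 ± 0.182 and 1.73 ± 0.0976, in brain EC 2.61 ± 0.171 and in kidney EC 5.56 ± 1.01. Every translatome sample, EC and Emx1-lineage included, exceeded every transcriptome sample. The ratio of Col6a1 to Col6a2 stayed between 0.798 and 1.10 in all 21 samples.

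Col12a1 measured 1.29, 1.44 and 1.43 RPKM in the brain transcriptome and 2.83, 3.51 and 2.60 in the brain translatome (1.13 ± 0.10), and 11.7, 10.1 and 9.20 against 25.5, 19.9 and 17.4 in kidney (1.02 ± 0.13). Col5a1 was higher in the brain translatome, at 7.14, 7.61 and 7.01 RPKM and then 9.19, 9.73 and 8.60 (0.37 ± 0.06), a call lost without brain translatome sample 1 (0.33) and in a single fit of all samples (0.34), and was -0.27 ± 0.10 in kidney (adjusted p = 0.042). Col22a1, a collagen of tissue junctions, was higher in kidney (1.25 ± 0.20) and -0.14 ± 0.11 in brain (adjusted p = 0.28).

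The genes lower in the translatome of both organs were Col2a1, Col11a2, Col9a3, Col27a1, Col15a1 and Col18a1. Col2a1 measured 28.2, 31.3 and 27.5 RPKM in the brain transcriptome and 8.07, 9.24 and 8.06 in the translatome (-1.75 ± 0.07), and 26.5, 21.6 and 20.9 against 13.2, 12.0 and 12.4 in kidney (-0.87 ± 0.08). Col18a1 measured 21.4, 22.0 and 19.7 RPKM against 11.1, 11.3 and 9.25 in brain (-0.97 ± 0.07), and 103, 106 and 112 against 59.6, 59.3 and 60.4 in kidney (-0.85 ± 0.05). Neither gene overlapped between the groups in either organ. Endothelial markers went the other way, with 3 of 6 higher in the brain translatome, 4 of 6 in the kidney translatome and 0 lower in either.

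Col15a1 was lower by -1.07 ± 0.19 in brain and -0.72 ± 0.06 in kidney and Col27a1 by -0.87 ± 0.10 and -0.32 ± 0.04, the kidney call being lost in a single fit of all samples (-0.31). Col9a3 measured 12.2, 12.9 and 12.8 RPKM in the brain transcriptome and 5.33, 4.48 and 5.04 in the translatome (-1.32 ± 0.08).

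Some genes were lower in the brain translatome alone by the threshold. Log2 fold changes of Col4a1 were -1.07 ± 0.08 in brain and -0.26 ± 0.08 in kidney (adjusted p = 0.021), and Col4a5 was -0.98 ± 0.07 and -0.20 ± 0.07 (adjusted p = 0.023). Col1a1 was -0.54 ± 0.07 in brain and -0.12 ± 0.13 in kidney (adjusted p = 0.49). The brain call of Col1a1 was lost in a single fit of all samples (-0.57), and the kidney value of Col4a1 passed the threshold by DESeq2 (-0.25). For Col3a1 the brain value was 0.00 ± 0.08 (adjusted p = 0.97).

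The difference between the organs was tested itself. The translatome to transcriptome change was lower in brain than in kidney for 10 collagens and higher for 0, against 4.12% and 2.35% of all rows, with a median of -0.59 against 0.00. At an unadjusted p under 0.05, edgeR gave 1 gene higher, and DESeq2 gave 1 higher at the adjusted threshold. The difference was -0.83 ± 0.12 for Col4a1 (adjusted p = 0.00017), -0.80 ± 0.09 for Col4a5, -0.90 ± 0.12 for Col2a1, -0.76 ± 0.11 for Col11a1, -0.84 ± 0.12 for Col16a1 and -1.41 ± 0.25 for Col22a1. With the tissue sample as a block, 19 were lower and 1 higher, and Col1a1 (-0.44, adjusted p = 0.084 without the block) passed the threshold. The count of lower genes was 6 without brain translatome sample 2, and the Col22a1 call was lost without any 1 of 7 libraries of the 12, at values from -1.29 to -1.43, and with the count filter (-1.40). The Col16a1 call was lost in a single fit of all 21 samples (-0.85).

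**Figure D5:**
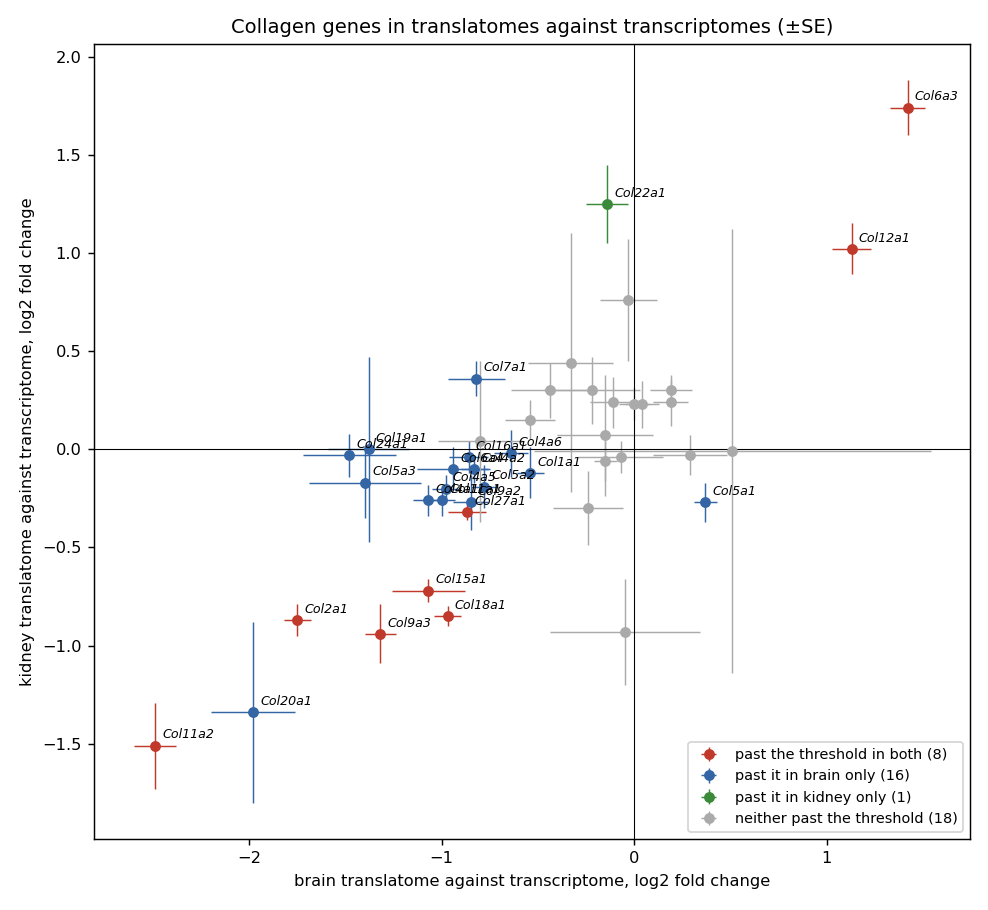
Log2 fold change of the translatome against the transcriptome for the 43 collagen genes in brain (horizontal axis) and kidney (vertical axis), with standard errors and colours for where the adjusted p passed 0.001. Col6a3 and Col12a1 lie at the upper right, and most points spread to the left along the brain axis.

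The organs themselves differed widely. In the transcriptomes, 30 of 43 collagens were higher in kidney and 6 lower, against 26.3% and 27.2% of all rows, with a median log2 fold change of 1.64 against 0.02. Col14a1 measured 12.4, 11.3 and 11.1 RPKM in kidney and 0.16, 0.27 and 0.21 in brain, a log2 fold change of 5.57 ± 0.15 (adjusted p = 6.8e-11). Col1a1 was at 232, 189 and 194 RPKM in kidney against 26.1, 26.9 and 24.0 in brain (2.81 ± 0.09), and Col3a1 at 213, 178 and 192 against 37.4, 42.7 and 36.0 (2.14 ± 0.09).

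Col4a1 was also higher in kidney. It measured 221, 222 and 252 RPKM in the kidney transcriptome and 61.3, 71.1 and 63.8 in brain (1.63 ± 0.08). Higher in kidney were also Col15a1 (2.82 ± 0.14), Col12a1 (2.71 ± 0.09), Col27a1 (2.54 ± 0.07) and Col16a1 (2.52 ± 0.08). The 3 genes over 5 RPKM that were lower in kidney were Col22a1 (0.86, 0.74 and 0.71 RPKM against 5.64, 5.61 and 5.89 in brain, -3.07 ± 0.09), Col9a3 (-2.78 ± 0.08) and Col2a1 (-0.52 ± 0.09), the last of which missed the threshold without brain transcriptome sample 2 (-0.46) and with total-count scaling (-0.34). The fibroblast and meninges markers summed to between 361 and 416 RPKM in kidney and between 49.0 and 51.8 in brain. All 6 endothelial markers (median log2 fold change 1.52), 5 of 7 mural markers and all 3 kidney stroma markers were also higher in kidney, and the part of these cells in the collagen result was not tested.

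The other genes of the collagen pathway were counted from lists. Of 31 genes for synthesis and processing (prolyl and lysyl hydroxylases, chaperones, propeptide cleavage and cross-linking), 22 were higher and 3 lower in brain EC against the brain translatome. In kidney EC 8 were higher and 10 lower, and in the Emx1-lineage 3 were higher and 15 lower. Over all rows the shares higher and lower were 24.8% and 21.4% in brain EC, 16.7% and 15% in kidney EC and 9.2% and 12.8% in the Emx1-lineage. Sparc, a collagen-binding matrix protein, measured 148, 164 and 152 RPKM in the brain translatome and 1663, 1588 and 1674 in brain EC (3.70 ± 0.09). Serpinh1, the collagen chaperone, measured 104.5, 102 and 86.8 RPKM against 514, 503 and 504 (2.66 ± 0.09), while it differed by 0.46 ± 0.08 between kidney EC and the kidney translatome.

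Plod1, a lysyl hydroxylase of collagen, was at 8.38, 8.80 and 8.23 RPKM in the brain translatome and 72.7, 67.4 and 75.0 in brain EC (3.37 ± 0.07), against a kidney difference of 0.55 ± 0.06. Fkbp10, a collagen chaperone, showed 3.21 ± 0.08 in brain EC and 0.47 ± 0.06 in kidney EC. For these 4 genes all EC samples exceeded all translatome samples in brain.

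Of 10 collagen receptors, 5 were higher and 2 lower in brain EC against the brain translatome, 2 higher and 3 lower in kidney EC, and 6 lower in the Emx1-lineage. Against the same shares over all rows, the 2 lower in brain EC and the 2 higher in kidney EC are near the background. Itga1, an integrin chain that binds type IV collagen, measured 2.70, 3.01 and 2.34 RPKM in the brain translatome and 23.0, 18.7 and 21.6 in brain EC (3.26 ± 0.10), and 0.15 ± 0.13 separated the kidney groups (adjusted p = 0.36). Itga2, another collagen-binding integrin chain, was higher in both EC groups (3.52 ± 0.10 and 2.67 ± 0.11). Ddr1, a collagen-activated receptor kinase of epithelia and neural cells, was lower in both (-1.81 ± 0.06 and -1.82 ± 0.08).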

How the data were processed

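RNA of 21 samples in 7 groups of 3 was made into libraries with the TruSeq RNA v2 kit, which does not mark strand. The authors aligned reads to GRCm38 (mm10) with RUM and counted reads per gene on the UCSC refGene annotation with rpkmforgenes. The deposited files give raw read counts per gene row and, from the authors, RPKM per length and mapped reads. Replicates were not pooled. The members, gene lists and tests used here were chosen with earlier results of these data known.

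Counts were tested with edgeR 4.0.16 (R 4.3.3) by glmQLFit and glmQLFTest after TMM normalization, each comparison fitted on its own groups, on rows with at least 1 read in those samples, with Benjamini-Hochberg adjustment over all rows tested and a threshold of 0.001. The 2 differences between organs were interaction terms. A value after ± is a standard error of a log2 fold change or, for RPKM, shares and ratios, an SD. All 43 members were tested in each of the 12 comparisons. The genes named by rule are Col4a1, Col1a1, Col3a1 and, per comparison, members past the threshold with at least 5 RPKM in either group, at most the 6 largest changes in each direction. Per-sample values are given at a gene's main comparison. Other genes are named to account for counts or groups and were chosen after their values were seen. p-values measure the spread between pooled-organ samples. DESeq2 1.42.0, other scalings, a count filter, the replicate block, single libraries left out and 1 fit of all samples were alternatives. The tests were tried on simulated counts with planted changes for some of the 12 comparisons. Those counts were drawn without shared tissue samples, so the trial does not bear on the pairing.

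Replicate numbers of the translatome and transcriptome of an organ mark the same tissue sample, and deviations of same-numbered samples correlated at 0.545 to 0.72 in brain and 0.663 to 0.698 in kidney. Among different tissue samples, all 3 numbers correlated above 0.1 in brain EC with kidney EC (0.162 to 0.393). So they did in the Emx1-lineage with the brain transcriptome (0.104 to 0.386). For the kidney and brain transcriptomes the same-number values were 0.6, -0.209 and 0.423, and the highest between different numbers was 0.585. In the remaining comparisons of different tissue samples, same numbers correlated at 0.14 or less.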

Additional observations from a re-analysis of the deposited data

Results flagged for a closer look

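These results were flagged because the same contrast differed between brain and kidney in a test of the difference itself. For EC against the whole-organ translatome, the log2 change was larger in brain by 2.66 for Col23a1, 2.26 for Col5a1, 2.09 for Col18a1, 2.05 for Col12a1, 2.03 for Col4a1 and 2.02 for Col4a2. Col23a1 changed direction, from 3.72 ± 0.55 RPKM (SD, n = 3) in the brain translatome to 8.84 ± 1.67 in brain EC and from 14.4 ± 1.32 in the kidney translatome to 5.29 ± 0.23 in kidney EC. Col5a1 went from 9.17 ± 0.57 to 24.5 ± 6.67 RPKM in brain and from 36.3 ± 5.78 to 19.7 ± 2.53 in kidney. The kidney change of Col5a1 did not pass the threshold by itself.

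For the translatome against the transcriptome, the log2 change in brain minus that in kidney was -1.41 for Col22a1, -0.90 for Col2a1, -0.84 for Col16a1, -0.83 for Col4a1, -0.80 for Col4a5 and -0.76 for Col11a1. Col16a1 went from 1.99, 2.19 and 1.94 RPKM to 1.12, 1.12 and 1.08 in brain and from 13.3 ± 1.04 to 13.0 ± 1.26 in kidney. Col11a1 went from 7.03 ± 0.32 to 3.44 ± 0.28 RPKM in brain and from 8.09 ± 0.65 to 6.76 ± 0.55 in kidney.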

How the results depend on the processing

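Of the counts of collagen genes in the 12 comparisons, 291 values under an alternative stayed within 1.5 times the value given and 21 did not. For brain EC against the brain translatome, the count lower was 1 by DESeq2, with the replicate block and in a single fit of all samples and 3 with total counts only, and 0 to 1 without single replicates. For kidney EC against the kidney translatome it was 19 with total counts only and 6 to 13 without single replicates. For kidney EC against the transcriptome it was 17 by DESeq2 and in the single fit and 21 with total counts only. For the Emx1-lineage against the transcriptome the count higher was 0 in the single fit. For the organ difference in EC enrichment the count with a smaller change in brain was 1 by DESeq2 and in the single fit and 0 to 1 without single replicates. For the kidney translatome against the transcriptome the replicate block gave 10 higher and 14 lower. For the organ difference in translatome to transcriptome it gave 1 higher and 19 lower, DESeq2 gave 1 higher, and leaving out single replicates gave 0 to 1 higher and 6 to 11 lower. The cause was not tested, except that fewer samples enter when 1 is left out. Where replicate numbers pair samples, the replicate block changed no other call of a gene named by rule than those given with the results. Where they do not, it also took Col1a1 past the threshold for the organ difference in EC enrichment (1.21).

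Signs turned for 3 values near 0: Col3a1 in kidney EC against the translatome (-0.22 with total counts only, -0.05 to 0.25 without single replicates), Col1a1 in brain EC against the transcriptome (-0.07 with total counts only), and Col3a1 in the brain translatome against the transcriptome (-0.01 by DESeq2, with relative log expression factors and with the count filter, -0.02 with total counts only and in the single fit, -0.10 to 0.08 without single replicates). Total-count scaling also shifted the collagen medians by -0.34 and -0.44 in EC against brain and kidney transcriptomes, 0.18 in kidney against brain and -0.15 in the Emx1-lineage against the transcriptome.

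Members under 1 RPKM rest on few reads, so a missed threshold there says little. Depth differed up to the range given above.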

Other observations

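Col4a3 and Col4a4, named after their values were seen, are low members of the basement membrane class. Col4a3 encodes a chain of the specialised type IV network of the glomerulus and overlaps Col4a4 at its start on chromosome 1. It measured 0.05, 0.07 and 0.09 RPKM in the brain translatome and 0.69, 0.75 and 0.72 in brain EC, a log2 fold change of 3.61 ± 0.19 (SE, adjusted p = 1.8e-09, edgeR). Col4a4 measured 0.15, 0.12 and 0.16 RPKM in the brain translatome and 0.07, 0.06 and 0.07 in brain EC, a change that did not pass the threshold. In kidney EC, Col4a3 was at 0.42, 0.45 and 0.35 RPKM against 0.39, 0.37 and 0.29 in the kidney translatome (0.56 ± 0.18, adjusted p = 0.021). All these levels were under 1 RPKM.

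The Col4a1 to Col4a2 ratio of RPKM was 1.62 ± 0.0295 (SD, n = 3) in the brain transcriptome, 1.38 ± 0.0272 in the brain translatome, 1.35 ± 0.0409 in brain EC and 0.942 ± 0.043 in the Emx1-lineage. In kidney it was 1.92 ± 0.0245, 1.72 ± 0.0276 and 1.67 ± 0.0419 in the transcriptome, translatome and EC. In both organs the transcriptome samples lay above the translatome and EC samples. The Col1a1 to Col1a2 ratio was 0.646 ± 0.0482 in brain EC and 1.47 ± 0.157 in kidney EC, without overlap.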
